A study of Rattus norvegicus with 9 samples.

Results

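The miRNAs miR-9, miR-128, miR-138 and miR-218a, which are best known from brain and spinal cord, were followed in the left ventricular wall of the rat. All rat sequences whose annotated name holds the stem mir-9, mir-128, mir-138 or mir-218a were taken, with every type of match to the entry, the opposite (*) strand included. This gave 4 of the 292 miRNA name stems annotated to rat and 183 of the 31220 rat sequences, with 3132 reads in all. The rule used names and no measured value, but it was set with earlier results of these data known. Small RNA had been sequenced from 3 hearts of male Sprague-Dawley rats 8 months old, and a piece of the left ventricular free wall of each heart (numbered 6, 7 and 8) gave epicardium, mid-myocardium and endocardium, cut about 1 mm from either surface. The rats were untreated as far as the labels say, and each of the 3 layers had 1 library from each heart. The layers are pieces of whole tissue with several cell types, and pieces of 1 heart share the animal. In such bulk tissue fewer cells of a type and less RNA per cell cannot be told apart. Levels are given in RPMM, reads scaled to 1000000 annotated reads of the library. Annotated reads ran from 283991 in mid-myocardium of heart 6 to 1428025 in endocardium of heart 7, so that 1 read was worth 3.52 and 0.700 RPMM there.

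A miRNA is cut from a hairpin transcript by Drosha and Dicer, and of the resulting duplex the major strand usually enters Argonaute while the * strand is mostly lost. Bases 2 to 8, the seed, pair with target mRNAs, so a shifted 5′ end changes the targets while a change at the 3′ end leaves the seed as it was. miR-9 is abundant in neural progenitors and works in neuronal differentiation. miR-128 is a brain-enriched miRNA that restrains neuronal excitability. miR-138 acts at dendritic spines and also in the patterning of the zebrafish heart chambers. miR-218 is enriched in motor neurons and regulates Robo receptors during heart tube formation, and its hairpins lie within genes for the Slit ligands of those receptors.

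The major strands are shown because their seeds and ends carry the results that follow. They are the RefSeq mature sequences (GRCr8), identical to the sequence deposited as the mature form, with the seed in capitals.
miR-128: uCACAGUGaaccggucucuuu
miR-9: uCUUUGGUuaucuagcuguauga
miR-218a: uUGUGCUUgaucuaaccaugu
miR-138: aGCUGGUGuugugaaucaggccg
No seed was shared between these 4 miRNAs. Each can come from more than 1 hairpin gene. In GRCr8, Mir128-1 lies at chr13:42251884-42251965 on the plus strand inside the span of R3hdm1, and Mir128-2 at chr8:120963795-120963878 on the minus strand inside Arpp21. Mir218-1 lies at chr14:66922348-66922457 on the minus strand within Slit2, and Mir218-2 at chr10:20572523-20572632 on the plus strand within Slit3. Mir138-1 lies at chr8:131178434-131178532 on the plus strand among long non-coding transcripts, and Mir138-2 at chr19:10680133-10680214 on the minus strand within the span of Slc12a3. The 3 genes of miR-9 lie at chr2:175974971-175975059 (Mir9-1), chr2:15933292-15933378 (Mir9-2) and chr1:142849400-142849489 (Mir9-3), all on the plus strand, inside the spans of LOC100911992, Mir9-2hg and Mir9-3hg in that order. The annotation used gives gene spans only, so exons and introns were not separated.

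Together the 4 miRNAs took between 0.0313% and 0.0607% of the annotated reads of a library. By mean level over the 9 libraries miR-128 ranked 94 of 437 rat entries (each strand counted on its own), miR-9 ranked 118, miR-218a 148 and miR-138 184. Only 228 of these rat entries reached 10 reads in some library, so many of the lower ranks were near-empty entries. miR-128 averaged 215 RPMM ± 69.6 (SD, n = 9 libraries), miR-9 123 ± 48.9, miR-218a 46.1 ± 23.0 and miR-138 16.8 ± 12.3. The order was nearly the same in every library. miR-128 was above miR-9 in 8 of 9 libraries, miR-9 above miR-218a in 9 of 9, and miR-218a above miR-138 in 8 of 9. The exception to the first was the epicardium of heart 8, and to the last the endocardium of heart 6. The spread between libraries was wider than counting error alone. The coefficient of variation was 32.4% for miR-128 against 8.13% from counting, 39.7% against 10.3% for miR-9, 49.9% against 18.1% for miR-218a and 73.3% against 27.0% for miR-138. Reads carried no molecular identifiers, so counting error and the intervals given here cover the counting of reads only.

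**Figure D1:**
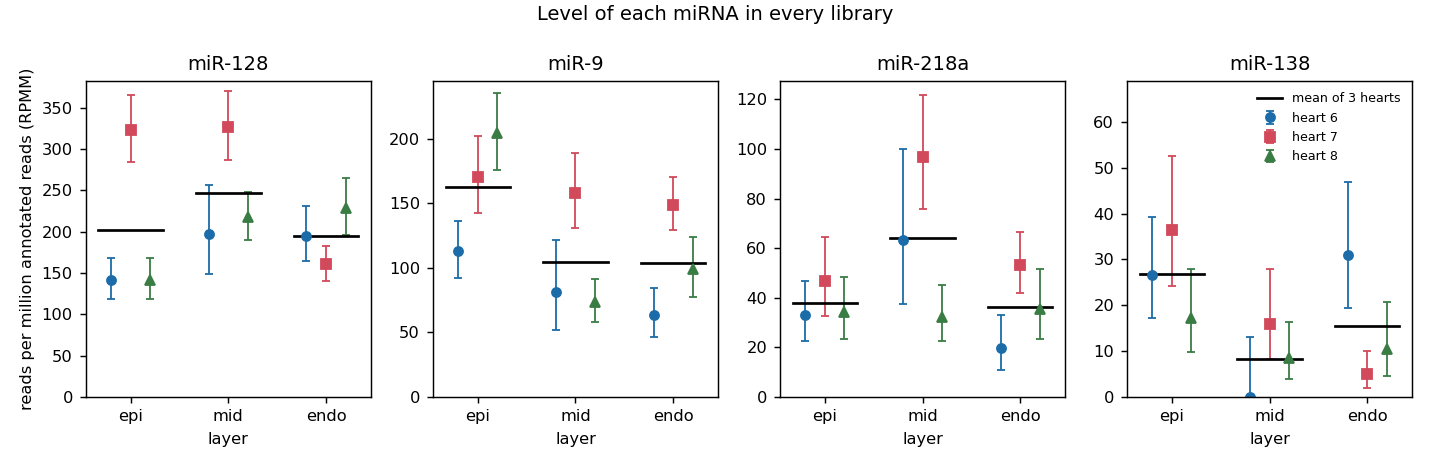
Level of each miRNA in each of the 9 libraries, in RPMM (linear axis from 0 with its own scale in each panel), by layer; colours and symbols mark the hearts, vertical bars are 95% Poisson intervals of the read count, and black lines are layer means. miR-9 and miR-138 had their highest layer mean in epicardium (162 and 26.7 RPMM), while miR-128 and miR-218a had theirs in mid-myocardium (247 and 64.2 RPMM), with wide spread between hearts in each panel.

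The layers were compared to see where in the wall each miRNA lay, by limma on log2(RPMM + 1) over the 388 entries of any species that reached 10 reads in some library. The major strands of all 4 miRNAs and miR-128* passed this minimum and miR-9*, miR-138* and miR-218a* did not, which left 5 of 8 member entries. No entry passed an adjusted p of 0.05 between endocardium and epicardium, a share called of 0.0%, and 0 of the 5 member entries did. At an unadjusted p under 0.05 limma found 15 of 388 entries, or 3.87%, edgeR's quasi-likelihood test 16 and DESeq2 13, with 0 adjusted calls by either of these. Among the 5 member entries 1, miR-128*, was under an unadjusted 0.05 in that comparison. The adjusted limma count was also 0 of 388 (0.0%) between mid-myocardium and epicardium and between endocardium and mid-myocardium, with 14 unadjusted in each (3.61%). There edgeR gave 12 and 17 unadjusted and DESeq2 9 and 8, again with 0 adjusted calls. Of the 5 member entries 1, miR-138, was under an unadjusted 0.05 in the first of these and 0 in the second. Between endocardium and mid-myocardium 0 of the 5 separated in either direction, beside 5.15% of all entries lower and 5.67% higher in every endocardial library. Between endocardium and epicardium 0 of the 5 separated either, beside 4.64% of all entries lower and 3.09% higher in every endocardial library.

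For miR-9 the 3 hearts shared which layer was highest, but not the order of the other layers. In epicardium it was at 113, 170.0 and 204 RPMM in hearts 6, 7 and 8. In mid-myocardium it was at 81.0, 158 and 73.1 RPMM, and in endocardium at 63.3, 148 and 98.7 RPMM. In each heart the epicardium held the highest level of the 3 layers, but the layers overlapped because heart 7 was high throughout and the epicardium of heart 6 was low. Layer means were 162 ± 46.1, 104 ± 46.9 and 103 ± 42.8 RPMM (SD, n = 3 each). Against epicardium the log2 fold change was -0.69 ± 0.42 (SE) in endocardium and -0.68 ± 0.42 in mid-myocardium, with adjusted limma p of 0.995 and 0.956. These differences share the epicardial libraries, so they are not separate evidence. An exact two-sided permutation test of the layer means gave p = 0.2 for each, where 3 against 3 libraries cannot go below 0.1, and swapping layers within hearts gave an exact p of 0.25, its smallest. With heart number as a block in the limma fit, the SE of the endocardial difference from epicardium was 0.33, with an adjusted p of 0.813. Endocardium and mid-myocardium differed by -0.00 ± 0.42 on the log2 scale. Without the endocardium of heart 6 the difference from epicardium was -0.38, and without that of heart 7 it was -0.99. The mid-myocardial difference ran from -1.02 to -0.47 with a library left out.

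miR-138 was the rarest of the 4 and the only member whose layers separated. In epicardium it was at 26.6, 36.3 and 17.2 RPMM in hearts 6, 7 and 8, from 25, 28 and 16 reads. In mid-myocardium hearts 7 and 8 gave 15.9 and 8.55 RPMM from 12 and 9 reads, and heart 6 gave 0 reads in the shallowest library, which allows up to 10.6 RPMM. Endocardium was at 30.9, 4.90 and 10.5 RPMM, so heart 6 reached the epicardial range and the other hearts lay below it. Every mid-myocardial library was thus below every epicardial library, a separation that 20 of the 388 entries (5.15%) showed in that direction. It was 1 of the 5 member entries tested, a number too small to set apart from that background, and 0 of the 5 lay wholly above (4.12% of all entries). The log2 fold change was -2.29 ± 1.00 (SE) with an unadjusted limma p of 0.0472 and an adjusted p of 0.956, and the exact permutation p was 0.1, the smallest possible. Without the mid-myocardium of heart 6 it was -1.06, and it was -3.41 with a pseudocount of 0.1, -1.09 with one of 10, -1.49 by edgeR and -1.51 by DESeq2. The endocardial difference from epicardium was -1.04 ± 1.00, and endocardium against mid-myocardium was 1.25 ± 1.00, with adjusted limma p of 0.995 and 0.885. With a library left out these ran from -1.69 to -0.47 and from 0.026 to 2.07, the lowest of the latter without the mid-myocardium of heart 6.

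**Figure D2:**
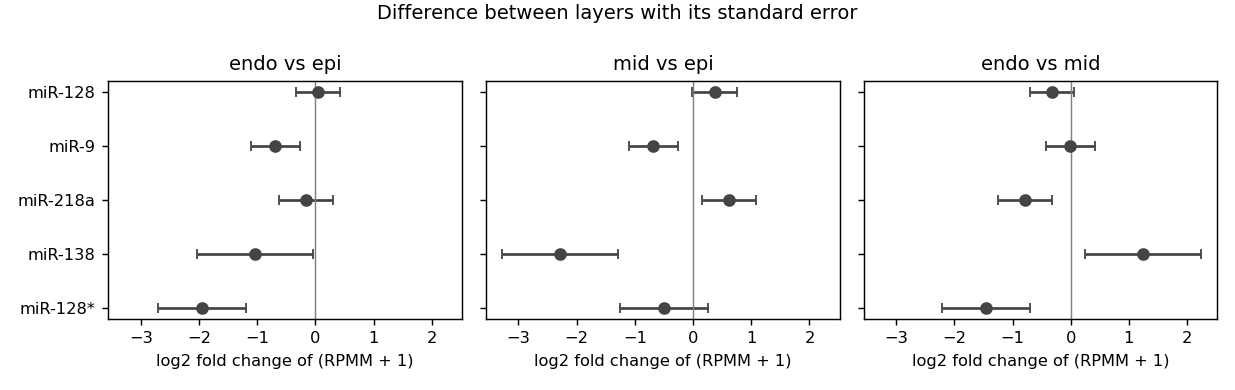
Log2 fold change of (RPMM + 1) between layers for the 5 member entries tested, with points for the limma estimate and bars for its standard error (3 libraries a layer); the vertical line is no difference. The lowest value was -2.29 for miR-138 in mid-myocardium against epicardium, and no adjusted p in any of the 3 panels was under 0.05.

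miR-128, the most abundant of the 4, was at 142, 323 and 142 RPMM in epicardium of hearts 6, 7 and 8. It was at 197, 327 and 218 RPMM in mid-myocardium and at 195, 160.4 and 229 RPMM in endocardium. Heart 7 held the highest value of the outer and the middle layer and the lowest of the inner layer, and the 3 layers overlapped. Mid-myocardium was above epicardium in each of the 3 hearts, by 0.37 ± 0.38 on the log2 scale, with an adjusted limma p of 0.956. Endocardium against epicardium was 0.05 ± 0.38 and against mid-myocardium -0.32 ± 0.38.

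miR-218a was at 33.0, 46.7 and 34.3 RPMM in epicardium, at 63.4, 96.9 and 32.3 RPMM in mid-myocardium, and at 19.7, 53.2 and 35.5 RPMM in endocardium of hearts 6, 7 and 8. Heart 7 was the highest heart in each layer, and the layers overlapped. The mid-myocardial mean of 64.2 ± 32.3 RPMM stood above 38.0 ± 7.56 RPMM for the epicardial and 36.1 ± 16.8 for the endocardial libraries, a log2 fold change of 0.62 ± 0.47 against epicardium and -0.79 ± 0.47 for endocardium against mid-myocardium. Neither passed, with adjusted limma p of 0.956 and 0.885. In heart 8 the mid-myocardium was the lowest layer, so the direction did not hold in every heart.

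The 3 hearts were compared over all layers by limma's F test with layer as a covariate. Limma called 0 of 388 entries (0.0%) at an adjusted p of 0.05 and 38 (9.79%) unadjusted, while edgeR called 10 and DESeq2 16 adjusted. None of the 5 member entries was under an unadjusted 0.05. The nearest were miR-9 and miR-218a, both higher in heart 7 than in heart 6 in every layer. miR-9 averaged 85.7 ± 25.1, 159 ± 10.8 and 125 ± 69.3 RPMM in hearts 6, 7 and 8 (SD, n = 3 layers), with an unadjusted limma p of 0.0672 and an adjusted p of 0.567. For miR-218a the means were 38.7 ± 22.4, 65.6 ± 27.3 and 34.1 ± 1.63 RPMM, with p of 0.0916 and 0.613 in the same test.

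The 4 miRNAs did not follow each other closely. Across the 9 libraries, Pearson's r of log2(RPMM + 1) between pairs of them ran from -0.42 (miR-138 with miR-218a) to 0.46 (miR-9 with miR-218a). All r values here are descriptive, since the libraries share hearts and totals, and the miRNAs named next are the 3 highest of 227 rat entries for each member. miR-9 was followed most closely by miR-301b (0.945), miR-411 (0.842) and miR-541 (0.814). miR-128 was followed by miR-451 (0.937), which is made in erythroid cells, by miR-201 (0.914) and by miR-222 (0.845), known from endothelium. For miR-138 the closest were miR-29a* (0.796), miR-598 (0.700) and miR-503* (0.684). For miR-218a they were miR-10a (0.578), miR-210* (0.575) and miR-201 (0.562).

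Markers of other cell types were set beside these levels. Of the neuron list (miR-124, miR-137 and miR-153) miR-124 had no read and the other two had 4 reads each, so the summed list ran from 1.06 to 3.89 RPMM in epicardium, 0 to 1.90 in mid-myocardium and 0 to 1.41 in endocardium. Both miRNAs of the oligodendrocyte list (miR-219 and miR-338) had reads, but miR-219 had only 24, so their sum was nearly all miR-338. The sum was 128 to 140.2 RPMM in epicardium, 91.6 to 133 in mid-myocardium and 77.3 to 103 in endocardium. miR-219 alone averaged 2.37 RPMM in epicardium, 1.84 in mid-myocardium and 4.12 in endocardium, so it did not share the lower endocardial level. The sum of the erythroid list (miR-451 and miR-144, both with reads) was mostly miR-451, already picked above for its r with miR-128. It was at 509, 1025 and 426 RPMM in epicardium of hearts 6, 7 and 8, at 651, 1013 and 781 in mid-myocardium and at 751, 561 and 827 in endocardium. Heart 7 was thus highest in the outer and middle layers and lowest in the inner layer, as for miR-128. miR-144 alone was at 18.3, 51.8 and 69.7 RPMM in endocardium, so heart 7 was not its lowest there. Of the summed lists given here, only the fibroblast list also placed heart 7 as miR-128 did. Its lead was small in epicardium (2270 against 2253 RPMM in heart 6) and in mid-myocardium (2832 against 2821 in heart 8). The sum was mostly miR-199a, and miR-214 alone did not share this placing. miR-214 was at 197, 125 and 144 RPMM in mid-myocardium and at 105, 137 and 207 in endocardium of hearts 6, 7 and 8. miR-338 alone also placed heart 7 as miR-128 did, but narrowly in endocardium (74.2 against 74.5 RPMM in heart 6). The epithelial and mesothelial list (miR-200a, miR-200b, miR-200c, miR-141 and miR-429, all 5 with reads) ran from 34.1 to 92.1 RPMM in epicardium, 21.2 to 60.8 in mid-myocardium and 18.9 to 48.7 in endocardium. The part of any of these cell types in the levels of the 4 miRNAs was not tested. Cardiomyocyte miRNAs (miR-1, miR-133a, miR-133b, miR-208 and miR-499, all 5 with reads) summed to 52314 to 140396 RPMM over the 9 libraries. The remaining lists, all with reads for each member, ran over the 9 libraries from 3285 to 8274 RPMM for endothelium (miR-126), 91344 to 154241 for smooth muscle (miR-143 and miR-145), 1476 to 2832 for fibroblasts (miR-199a and miR-214) and 5726 to 13393 for leukocytes (miR-142, miR-150 and miR-223).

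Other neural-enriched miRNAs gave the members their setting. Of 26 such miRNAs on a list from general knowledge, 21 had a read of the major strand under the listed name and 6 reached 10 reads in a library. miR-124, miR-7b, miR-344, miR-551b and miR-218b had none under exactly these names. By mean level miR-338 (110 RPMM ± 25.0, SD, n = 9), an oligodendrocyte miRNA, stood just under miR-9, and miR-326 (46.7 ± 10.8) beside miR-218a. miR-132, induced by neuronal activity, was at 26.3 ± 8.76 RPMM, and miR-488, miR-384 and miR-346 were at 14.9 ± 7.56, 11.1 ± 3.43 and 9.39 ± 2.72. Of their * strands miR-7a* (11.7 ± 5.78), miR-338* (10.3 ± 4.99) and miR-129* (1.68 ± 2.21) also reached 10 reads in a library. miR-128 and miR-9 thus had the highest mean levels of all the neural-enriched miRNAs counted here.

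Between endocardium and epicardium, 0 of the 9 listed entries tested passed the adjusted limma p and 2 were under an unadjusted 0.05, against 3.87% of all entries. The median log2 fold change of the 9 was -0.37 beside -0.01 for all 388. miR-338 was at 127, 136 and 132 RPMM in epicardium of hearts 6, 7 and 8 and at 74.5, 74.2 and 98.7 RPMM in endocardium. Its groups did not overlap, with a log2 fold change of -0.68 ± 0.25 (SE). miR-326 lay the other way, at 36.2, 40.2 and 36.5 RPMM in epicardium but 67.5, 50.4 and 56.6 RPMM in the inner layer, by a log2 fold change of 0.61 ± 0.24. Groups also did not overlap for miR-132, which was at 38.3, 37.6 and 30.1 RPMM in epicardium and 12.7, 26.6 and 25.0 in endocardium. Of all entries 4.64% were lower and 3.09% higher in every endocardial than in every epicardial library, beside 2 and 1 of the 9. In the other layer comparisons 0 of the 9 were under an unadjusted 0.05, with medians of -0.01 for mid-myocardium against epicardium (0.00 for all entries) and -0.35 for endocardium against mid-myocardium (-0.03 for all entries). In each of these 2 of the 9 were lower without overlap, miR-132 and miR-129* in the first and miR-7a* and miR-384 in the second, against 5.15% of all entries in each. The separation of miR-129* cannot be read, since it rests on 1, 1 and 2 reads in epicardium and 0, 0 and 1 in mid-myocardium, where 0 reads in heart 6 allow up to 10.6 RPMM.

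**Figure D3:**
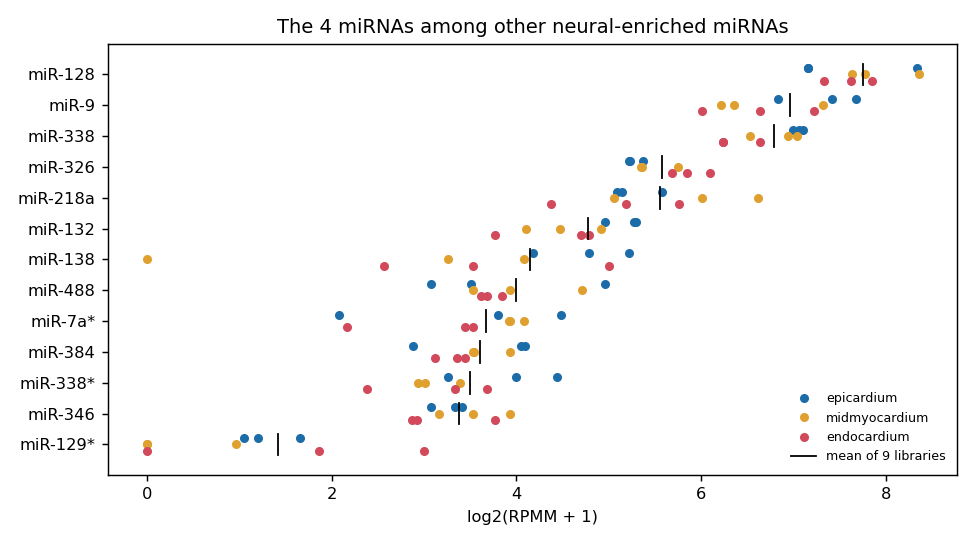
Level of the 4 miRNAs and of the 9 other neural-enriched entries with at least 10 reads in a library, as log2(RPMM + 1), with 1 point per library coloured by layer and a black line at the mean RPMM of the 9 libraries. miR-128 (215 RPMM) and miR-9 (123 RPMM) head the list, miR-338 (110 RPMM) follows with its endocardial points to the left of its epicardial ones, and the points of miR-138 at 0 and of miR-129* at 0 are libraries without a read.

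The sequences behind these sums were compared next, to see which form of each miRNA the heart held. Reads were aligned to the mature sequence, and 1 read of miR-9, 7 of miR-128, 2 of miR-138 and 3 of miR-218a with more than 2 mismatches before the last 3 nts were left out. The 5′ end was nearly uniform. It was the annotated one in 99.5% ± 0.697 of miR-9 reads, 99.2% ± 0.610 of miR-128 reads and 99.8% ± 0.457 of miR-218a reads (SD, n = 9 libraries), and in 98.9% ± 3.21 of miR-138 reads (n = 8, since 1 library had none). Bases 2 to 8 were those of the annotated seed in 970 of 977 aligned reads of miR-9, 1562 of 1580 of miR-128, 336 of 338 of miR-218a and 122 of 125 of miR-138. The 3′ end varied, and differently for each miRNA.

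The exact mature sequence made up 38.2% ± 4.83 of miR-9 reads, 41.4% ± 4.41 of miR-128 reads, 52.5% ± 6.82 of miR-218a reads and 68.1% ± 8.51 of miR-138 reads. miR-218a was above miR-128 and above miR-9 in 9 of 9 libraries, and miR-138 was above both of them in 8 of 8. Of 12 exact permutation tests of this share between layers (4 miRNAs, 3 comparisons) the lowest p was 0.1, for miR-128, with 44.7% ± 0.854 in endocardium and 37.4% ± 2.39 in epicardium. This p is the smallest that 3 against 3 libraries allow, and adjusted over the 12 tests it was 0.8. For the share with the annotated 5′ end no exact p between layers was under 0.4.

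miR-9 was often shortened. Reads ending before the annotated 3′ end were 48.5% ± 6.53 of its reads, against 9.69% ± 1.89 for miR-128, 7.28% ± 4.04 for miR-218a and 24.9% ± 10.2 for miR-138, and miR-9 had the highest share in every library. The main forms are shown as deposited, with T for U, and capitals mark bases past the mature 3′ end or that no hairpin of the miRNA holds at that place.
miR-9, mature: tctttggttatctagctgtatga
miR-9, 21 nts: tctttggttatctagctgtat
miR-9, 22 nts: tctttggttatctagctgtatg
miR-9, A23T: tctttggttatctagctgtatgT
The 21-nt form had 274 of 977 reads (28.0%, 95% Wilson interval 25.3 to 30.9), the 22-nt form 119 reads and the exact form 391. The form A23T, which has T at the last of the positions counted from the 5′ end of the mature sequence, had 88 reads, or 9.01%, and was present in 9 of 9 libraries. None of the 3 hairpins of miR-9 holds this T, so an addition to the 22-nt form and a substitution cannot be told apart.

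miR-128 was often extended. Reads past the annotated 3′ end were 46.1% ± 4.27 of its reads and 39.9% ± 6.91 of those of miR-218a, but only 2.22% ± 1.90 for miR-9 and 3.59% ± 4.69 for miR-138. Both extended miRNAs were above both others in every library where they could be compared.
miR-128, mature: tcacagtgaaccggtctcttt
miR-128, plus T: tcacagtgaaccggtctctttT
miR-128, plus AT: tcacagtgaaccggtctctttAT
miR-128, plus A: tcacagtgaaccggtctctttA
miR-128, plus AA: tcacagtgaaccggtctctttAA
The exact form had 664 of 1580 reads and the plus T form 180, or 11.4% (95% Wilson interval 9.92 to 13.1). Plus AT had 137 reads, plus A 135 and plus AA 67, and the last bases of these forms match no miR-128 hairpin. Untemplated 3′ ends of any kind were on 32.9% ± 3.48 of miR-128 reads, the highest share of the 4 miRNAs in every library. They were on 19.1% ± 6.40 of miR-218a reads, 15.0% ± 4.73 of miR-9 reads and 5.44% ± 6.21 of miR-138 reads. Reads with a mismatch before the last 3 nts were counted as having no untemplated end. The untemplated bases also differed. A alone was on 18% ± 2.72 of miR-128 reads and T alone on 0.584% ± 0.627. miR-9 carried A alone on 2.76% ± 1.72 and T alone on 11.3% ± 3.58. This difference in T rests on counting added T that Mir128-1 holds as templated: with those reads included, T alone was on 14.0% ± 2.52 of miR-128 reads. For miR-9 the form A23T made up 88 of the 100 reads with T alone and of the 141 with any untemplated end. In that form an added and a substituted base cannot be told apart.

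The leading extension of miR-218a was a G held by both hairpins. In the GT and GA forms the last base matches neither hairpin, and in the GG form it matches Mir218-2 only.
miR-218a, mature: ttgtgcttgatctaaccatgt
miR-218a, plus G: ttgtgcttgatctaaccatgtG
miR-218a, plus GT: ttgtgcttgatctaaccatgtGT
miR-218a, plus GA: ttgtgcttgatctaaccatgtGA
miR-218a, plus GG: ttgtgcttgatctaaccatgtGG
Of 338 reads 180 were exact, 46 had the G, 32 GT, 17 GA and 17 GG. miR-138 was the most uniform, with 84 of 125 reads exact and 25 reads (20.0%, 95% Wilson interval 13.9 to 27.9) ending short in a 21-nt form.
miR-138, mature: agctggtgttgtgaatcaggccg
miR-138, 21 nts: agctggtgttgtgaatcaggc

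**Figure D4:**
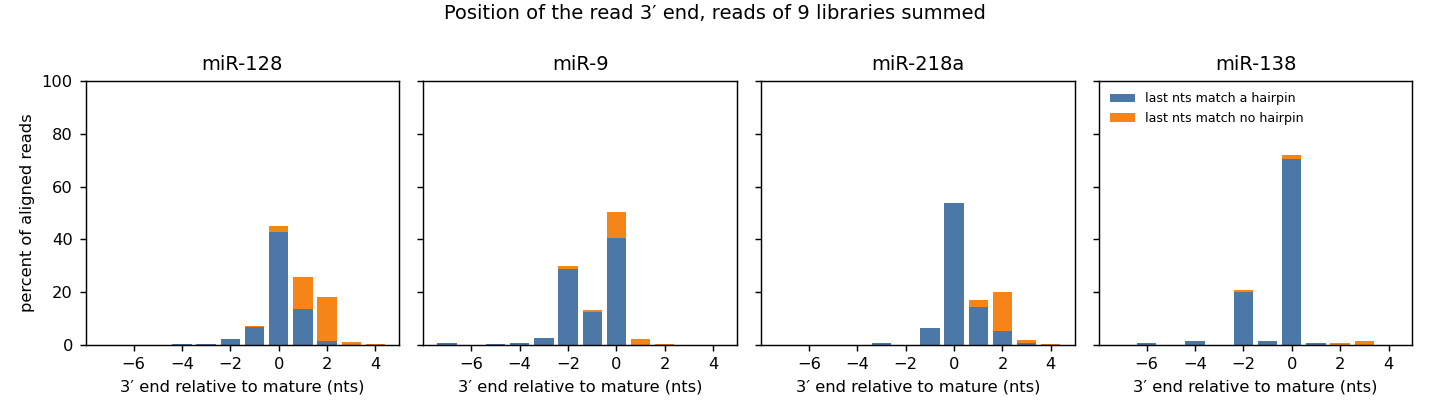
Position of the last base of major-strand reads relative to the mature 3′ end (negative is shorter), as a percent of aligned reads of the 9 libraries summed (1580 for miR-128, 977 for miR-9, 338 for miR-218a, 125 for miR-138); blue reads match a hairpin of the miRNA to the last base and orange reads do not. miR-9 and miR-138 have a second peak of shorter reads, while miR-128 and miR-218a extend past the end with many untemplated bases.

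Some sequences tell the hairpin genes of a miRNA apart. For miR-128 the * strand matched mostly Mir128-1, the gene inside R3hdm1. It had 63 reads, of which 62 (98.4%, 95% Wilson interval 91.5 to 99.7) matched Mir128-1 best and 1 matched Mir128-2. The deposited table grouped on the mature sequence lists this strand under the name mir-128-2*, so the name there differs from the gene the reads match. On the major strand 202 reads ran into bases found only in Mir128-1 and 32 into bases found only in Mir128-2, the former 86.3% (81.3 to 90.1) of the 234. All 202 differ from the shared sequence by added T only, 181 of them by a single T, and 0 reads ran further into Mir128-1. With the single T form left out, 21 reads were left for Mir128-1 beside the 32 for Mir128-2, so the order on this strand rests on that form. Added T or C could also be untemplated, which was not tested. By layer there were 69, 69 and 64 reads for Mir128-1 in epicardium, mid-myocardium and endocardium and 12, 7 and 13 for Mir128-2, and a difference between layers was not tested.
miR-128*, from Mir128-1: cGGGGCCGtagcactgtctga
miR-128*, from Mir128-2: gGGGGCCGatgcactgtaa
These are the most frequent read of each gene, with the seed in capitals. The seeds of both are the same, and the first had 28 reads.

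For miR-218a the informative reads pointed to Mir218-2, the gene within Slit3. On the major strand 19 reads had bases of Mir218-2 only and 0 of Mir218-1 only. Their added G could also be untemplated, which was not tested. Taken as templated, they allow up to 16.8% from Mir218-1 by the 95% Wilson interval. On the * strand 5 of 6 reads matched Mir218-2 best and 1 Mir218-1. For miR-138 both genes were seen, with 4 * reads from Mir138-1 and 5 from Mir138-2. The mature sequence of miR-9 is the same in its 3 hairpins, and no major-strand read separated them.

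**Figure D5:**
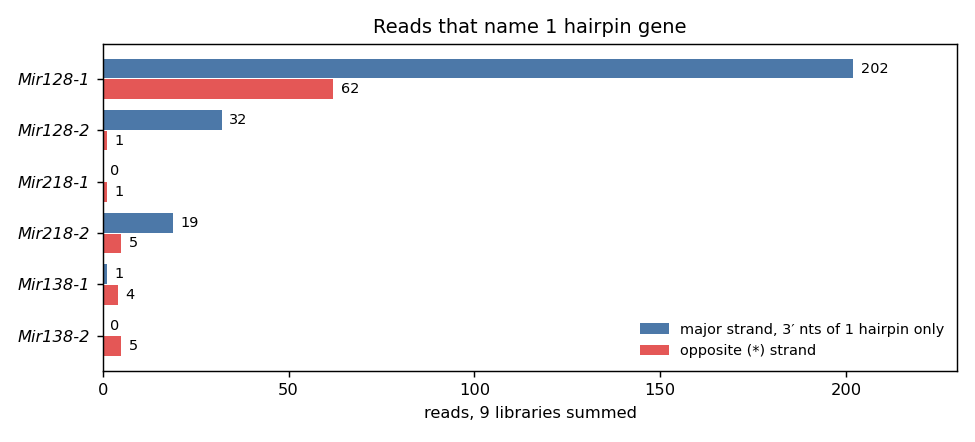
Reads of the 9 libraries summed that match 1 hairpin gene and not its paralog, for the major strand (blue, by bases past the shared mature sequence) and the opposite strand (red), with the number of reads at each bar. Mir128-1 had 202 and 62 reads against 32 and 1 for Mir128-2 (21 against 32 on the major strand without the single T form), Mir218-2 had 19 and 5 against 0 and 1 for Mir218-1, and the genes of miR-138 had too few reads to set apart.

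The * strands were rare: 63 of 1650 reads of miR-128 (3.82%, 95% Wilson interval 3.00 to 4.86), 21 of 999 of miR-9 (2.10%, 1.38 to 3.19), 9 of 136 of miR-138 (6.62%, 3.52 to 12.1) and 6 of 347 of miR-218a (1.73%, 0.795 to 3.72). miR-128* was at 10.6, 7.79 and 15.0 RPMM in epicardium of hearts 6, 7 and 8, at 7.04, 6.64 and 8.55 in mid-myocardium and at 0, 11.2 and 1.32 in endocardium. The endocardial libraries thus held both a value in the epicardial range and the lowest values, so these layers overlapped. The entry had passed the read minimum through the epicardium of hearts 6 and 8 and the endocardium of heart 7 only. Its log2 fold change in endocardium against epicardium was -1.95 ± 0.76 (SE), with an unadjusted limma p of 0.0295 and an adjusted p of 0.963. Without the endocardium of heart 7 it was -2.95 with an adjusted limma p of 0.0445, and without that of heart 6 it was -1.15. In the former fit the entry passed the read minimum only through the epicardium of hearts 6 and 8, where it was high. The endocardial libraries left there held 0 and 1 reads, so this p is no support for a difference. With all libraries the fold change was -3.22 with a pseudocount of 0.1, -0.65 with one of 10, -1.15 by edgeR and -1.26 by DESeq2.

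The 5′ end of some * strands was not the annotated one. Of 21 reads of miR-9* 16 began 1 base inside the RefSeq sequence and 5 at its start (76.2%, 95% Wilson interval 54.9 to 89.4, for the former).
RefSeq rno-miR-9a-3p: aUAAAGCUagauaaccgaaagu
miR-9*, most frequent read: tAAAGCTAgataaccgaaagt
The bases in capitals, 2 to 8 of each, differ between these forms. All 63 reads of miR-128* began at the annotated base. All 4 reads of miR-138* from Mir138-1 began 2 bases inside the RefSeq sequence and all 5 from Mir138-2 at the annotated start.
RefSeq rno-miR-138-1-3p: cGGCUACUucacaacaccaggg
miR-138*, from Mir138-1: gCTACTTCacaacaccagggt
RefSeq rno-miR-138-2-3p: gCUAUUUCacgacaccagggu
These counts are small, and libraries with such reads numbered 7 for miR-9*, 8 for miR-128*, 4 for miR-138* and 3 for miR-218a*.

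Outside the rat entries the 4 miRNAs left little. Rows of other species with the same name stems held 18 reads over the 9 libraries and were not counted as members. Of 13317 unannotated sequences with at least 10 reads, 0 shared a run of 15 bases with any of the 9 hairpins.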

How the data were processed

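Small RNA of 9 TruSeq libraries (3 hearts, 3 layers each, RIN at least 8) was trimmed and annotated by the authors against miRBase 18 with CLC Genomics Workbench 4.0, allowing up to 2 mismatches and 3 added or removed nts at each end. The annotation was to miRBase entries, not to a genome. The authors deposited annotated sequences as RPM of the annotated reads (RPMM), a grouped table whose signal is scaled to totals that differ between * and other entries, and the read count of unannotated sequences. In the deposited RPMM, 100% of values were whole reads (within 0.01 read), so reads were recovered. They were summed by species, name stem and strand, reads of precursor type going with the major strand. Groups come from the layer and heart in the labels.

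Entries that reached 10 reads in some library (388, of which 228 rat) were tested by limma (lmFit, eBayes) on log2(RPMM + 1) over the 9 libraries. P-values were adjusted by Benjamini-Hochberg over all entries, and 0.05 was the threshold. For low entries a fold change on this scale depends on the pseudocount. Single values carry exact two-sided permutation tests. The 3 layers of a number come from the same animal, so the numbers pair the libraries. The mean correlation of deviations from the layer means was 0.144 within hearts and -0.069 between hearts. Reads were aligned to RefSeq sequences with up to 3 nts at the 5′ end, and this step and the tests were checked on simulated data. Depth set the floor: 3 reads were 2.10 to 10.6 RPMM.

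The members, the lists and the tests were chosen with earlier results of these data known. Named were all members, listed neural-enriched miRNAs with at least 10 reads in a library, the 3 rat entries most like each member, and the entry with the smallest adjusted p in a comparison. Those were miR-410 (endocardium against epicardium, log2 fold change -1.54, adjusted limma p 0.961), miR-425* (-1.27 and 0.956 for mid-myocardium against epicardium, 1.16 and 0.885 for endocardium against mid-myocardium) and miR-1271 of horse between hearts (0.0763). Alternatives changed the samples, pairing, normalization, total, pseudocount (0.1 and 10), filter, grouping, test and each library in turn. The software was limma 3.58.1, DESeq2 1.42.0 and edgeR 4.0.16 under R 4.3.3, and scipy 1.17.1, numpy 2.4.6, matplotlib 3.10.9 and pandas 2.3.3 under Python 3.11.15.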

Additional observations from a re-analysis of the deposited data

How the results depend on the processing

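The layer comparisons kept 0 adjusted calls under every alternative run, with 1 exception: leaving out 1 library at a time gave 0 to 1 for endocardium against epicardium, the 1 being miR-128* without the endocardium of heart 7, and 0 in the others. In that fit miR-128* passed the read minimum through epicardium alone, the layer where it was high, so the call is no support. With heart number as the replicate block the counts were 0, 0 and 0, with 19, 18 and 17 entries under an unadjusted 0.05, and the block changed no other call. Of the 15 differences of member entries between layers, 12 kept their sign under all alternatives. miR-128 in endocardium against epicardium, reported as 0.05, was -0.028 by edgeR and -0.0085 by DESeq2, and ran from -0.15 to 0.44 with a library left out. miR-9 in endocardium against mid-myocardium, reported as -0.00, was 0.023 with TMM factors, 0.089 on the rat total, 0.24 from exact mature reads, 0.038 by edgeR and 0.013 by DESeq2, and ran from -0.31 to 0.34 with a library left out. miR-218a in endocardium against epicardium ran from -0.49 to 0.21, above 0 only without the endocardium of heart 6. miR-138 in mid-myocardium against epicardium ran from -3.10 to -1.06 with a library left out. Its size and that of miR-128* depended on the pseudocount and the tool, as given beside them.

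Between hearts the number of adjusted calls, reported as 0, was 7 with a pseudocount of 10, 2 without the filter, 1 in the grouped table, 10 by edgeR, 16 by DESeq2 and 8 by limma with an intensity trend, and 0 to 5 with a library left out. The cause was not tested. No member entry was among them. With only sequences of at least 2 reads in a library, which removes rare forms by construction, the exact share was 80.3% for miR-138 and 60.4% for miR-218a, and the share with the annotated 5′ end 100% for miR-128. With a library left out the exact shares ran from 37.5 to 39.2% (miR-9), 40.8 to 42.1% (miR-128), 66.6 to 69.9% (miR-138) and 51.0 to 53.8% (miR-218a).

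Depth limits miR-138 and the * strands most: in the shallowest library 3 reads are 10.6 RPMM.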
